A study of Mus musculus with 4 samples.

Results

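The genes described here are the Wnt ligands, the Frizzled receptors and the regulators of Wnt signalling, in NMuMG cells, an established line of mouse mammary gland epithelium. They were chosen by symbol: Wnt, Fzd, Sfrp or Dkk followed by a number, together with Axin2, Lrp5, Lrp6, Tcf7, Tcf7l1, Tcf7l2, Lef1, Wls, Nkd1, Nkd2, Rnf43 and Znrf3. The mouse annotation holds 49 such symbols, and 33 of them had a row among the 21971 genes analysed. These 33 were 13 ligand genes, 9 Frizzled genes, 2 co-receptor genes, 4 genes of the TCF/LEF factors, 4 genes of feedback regulators and the ligand transporter gene Wls. The 8 Sfrp and Dkk genes, whose secreted proteins antagonise Wnt signalling, had no row analysed here.

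The study compared 4 groups, each as 1 library of total RNA depleted of ribosomal RNA. They were Vp16-TRF1ΔN cells after 24 h of TGFβ, Vp16-TRF1ΔN cells at 0 h, TRF1ΔN cells after 24 h of TGFβ and TRF1ΔN cells at 0 h. TRF1 is a shelterin protein that binds telomeric repeats, and all 4 libraries come from NMuMG cells that overexpress a mutated human TRF1, so no library is free of a construct. In the Vp16-TRF1ΔN cells it is fused to Vp16, a viral transcription activation domain, which the study used to raise telomeric repeat-containing RNA (TERRA), and the cells were given 5 ng/ml TGFβ to induce epithelial-to-mesenchymal transition (EMT). The labels do not say whether a line is 1 clone or a pool, and no 24 h library without TGFβ was analysed here, so TGFβ and the time in culture cannot be told apart.

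Between 35418985 and 45983910 counts fell on genes in each library, and the fewest were in Vp16-TRF1ΔN at 24 h. The row for the Vp16 domain held 27 and 15 counts in the 24 h and 0 h libraries of Vp16-TRF1ΔN, against 1 and 0 counts in those of TRF1ΔN, and the TRF1ΔN row held 159, 123, 7798 and 1863 counts in that order. Of 10 epithelial marker genes, 7 averaged 1 CPM or more (CPM, the count scaled to a common library size), and their list summed to 6174 to 6458 CPM in the 4 libraries. Within it, 3 genes were called higher and 3 lower after TGFβ. Cdh1, which encodes E-cadherin, had 166 and 368 CPM in Vp16-TRF1ΔN at 24 h and 0 h, and 107 and 366 CPM in TRF1ΔN at 24 h and 0 h. Krt19 had 270.03 and 1648 CPM in Vp16-TRF1ΔN at 24 h and 0 h, and 82.7 and 1565 CPM in TRF1ΔN at 24 h and 0 h, while Krt18 was higher at 24 h in both lines. The defining epithelial marker Epcam had only 4 to 18 counts. The fibroblast list summed to 12.1 and 1.95 CPM in Vp16-TRF1ΔN at 24 h and 0 h, and to 21.7 and 1.36 CPM in TRF1ΔN at 24 h and 0 h, and its defining marker Dcn had 0 to 2 counts. The luminal mammary list summed to 128 and 354 CPM in Vp16-TRF1ΔN at 24 h and 0 h, and to 97.6 and 342 CPM in TRF1ΔN at 24 h and 0 h, and the basal list to 2.53 to 9.43 CPM in the 4 libraries. The endothelial, immune and adipocyte lists summed to at most 5.35 CPM in any library. Mitochondrially encoded genes took 15.7% and 11.4% of counts in Vp16-TRF1ΔN at 24 h and 0 h, and 13.3% and 10.2% in TRF1ΔN at 24 h and 0 h. The sums of the fibroblast, luminal and basal lists, single epithelial genes and the mitochondrial share thus move with TGFβ. Calls within the lists were 2 higher and 0 lower for fibroblast, 1 higher and 2 lower for luminal, and 3 higher and 1 lower for basal. At 24 h luminal Gata3 was higher and basal Krt5 lower in both lines, against the sums of their lists. The part of these markers in the results on the Wnt genes was not tested, and without the mitochondrially encoded genes all 18 calls of a TGFβ change given below were kept. Fewer cells of a type and less RNA per cell cannot be told apart in these bulk libraries.

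Wnt proteins are secreted, lipid-modified ligands. Wls carries them to the cell surface, where they bind a Frizzled receptor and a co-receptor, Lrp5 or Lrp6. In the canonical branch this stops the breakdown of β-catenin, which then acts in the nucleus on DNA-bound TCF/LEF factors, and other branches act on cell polarity and movement. Axin2, Nkd1, Nkd2, Rnf43 and Znrf3 damp the signal, and several of them are themselves induced by it. In the mammary gland, Wnt signalling is known for its part in duct branching and in the upkeep of basal stem cells.

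Wnt9a, Wnt4 and Tcf7 were the genes picked out for description in every comparison. The start regions of Wnt9a and Wnt4 are shown, and that of Tcf7 is not printed. Among the ligand genes of at least 1 CPM, Wnt9a and Wnt4 changed most in each direction after TGFβ. The RefSeq bases just before the annotated Wnt9a gene, at chr11:59306680-59306927 on the + strand of GRCm38.p6, are printed with a TATAA match in capitals. For Wnt4, a 30-base stretch at chr4:137277605-137277634 on the + strand is printed with an E-box in capitals, the sequence CACCTG that the EMT repressors of the Snail and Zeb families are known to bind. It lies inside the gene as annotated, shortly after its start.
Wnt9a: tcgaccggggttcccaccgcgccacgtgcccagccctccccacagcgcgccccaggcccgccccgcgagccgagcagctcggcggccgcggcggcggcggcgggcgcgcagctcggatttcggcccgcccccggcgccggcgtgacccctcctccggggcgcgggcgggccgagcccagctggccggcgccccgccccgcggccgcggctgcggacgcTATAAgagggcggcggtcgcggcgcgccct
Wnt4: cgtccgcgcggcgccCACCTGccgccccga
The printed Wnt9a stretch is 84.3% G or C and holds 48 CpG pairs, against a median of 52.4% and 6 CpG pairs over 32851 promoter windows. This is not particular to Wnt9a. The Wnt4 window is 85.2% G or C with 44 CpG pairs, and the 32 windows of members have medians of 66.6% and 18.5 CpG pairs. TATAA was searched on the gene's strand only, after the sequence had been seen, and 16.0% of all windows hold it there. The other motifs were searched on both strands. CAGGTG, which is CACCTG on the other strand, lies in 17.2% of all windows and in windows of 4 members: Fzd5, Wnt10b, Wnt4 and Wnt5b. The TCF/LEF motif CTTTGA lies in 13.8% of all windows and in those of Fzd1, Lef1, Wnt11 and Wnt5b. The SMAD motif CAGAC lies in 42.2% of all windows and in those of 11 members, and the AP-1 motif TGANTCA lies in 6.75% of all windows and, among members, in that of Wnt5b. None of the E-box, TCF/LEF, SMAD and AP-1 motifs is in the windows of Wnt9a or Tcf7. A match describes letters only, and the windows were 250 bases before each RefSeq start, found for 23 members.

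The first comparison asked how the genes changed with TGFβ, averaged over both lines. An additive model was fitted to 14305 genes with edgeR's quasi-likelihood test, and genes with a Benjamini-Hochberg adjusted p under 0.05 were called. It tested 25 of the 33 members and called 14 higher and 4 lower after TGFβ. Over all genes tested, 23.5% were called higher and 25.1% lower. Wnt9a, Wnt2, Wnt11 and Tcf7l1 passed the filter on low counts only through their 24 h libraries, so they could hardly be called other than higher. Among the 19 members that reached the level of that filter at both times, a count added after seeing the data, 10 were called higher and 4 lower, beside 23.7% and 24.98% of the 12743 such genes. Of the 25, 9 were called and at least 2-fold higher, and 2 at least 2-fold lower, beside 8.67% and 10.4% of all genes. The 9 include Wnt9a, Wnt2, Wnt11 and Tcf7l1, so this count is raised by genes that passed the filter only through 24 h. In 19 of the 20 members that averaged 1 CPM or more, the ratio of 24 h to 0 h lay on the same side of 1 in both lines, and Fzd7 was the exception. The share of all genes for which this holds was not computed, so it is not a trait of the members. Fzd4 is among the 19, although its counting intervals held 1 in both lines. The 8 members outside the test had few counts: Lef1, Nkd2, Wnt1, Wnt10b, Wnt3, Wnt5a, Wnt5b and Wnt6.

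**Figure D1:**
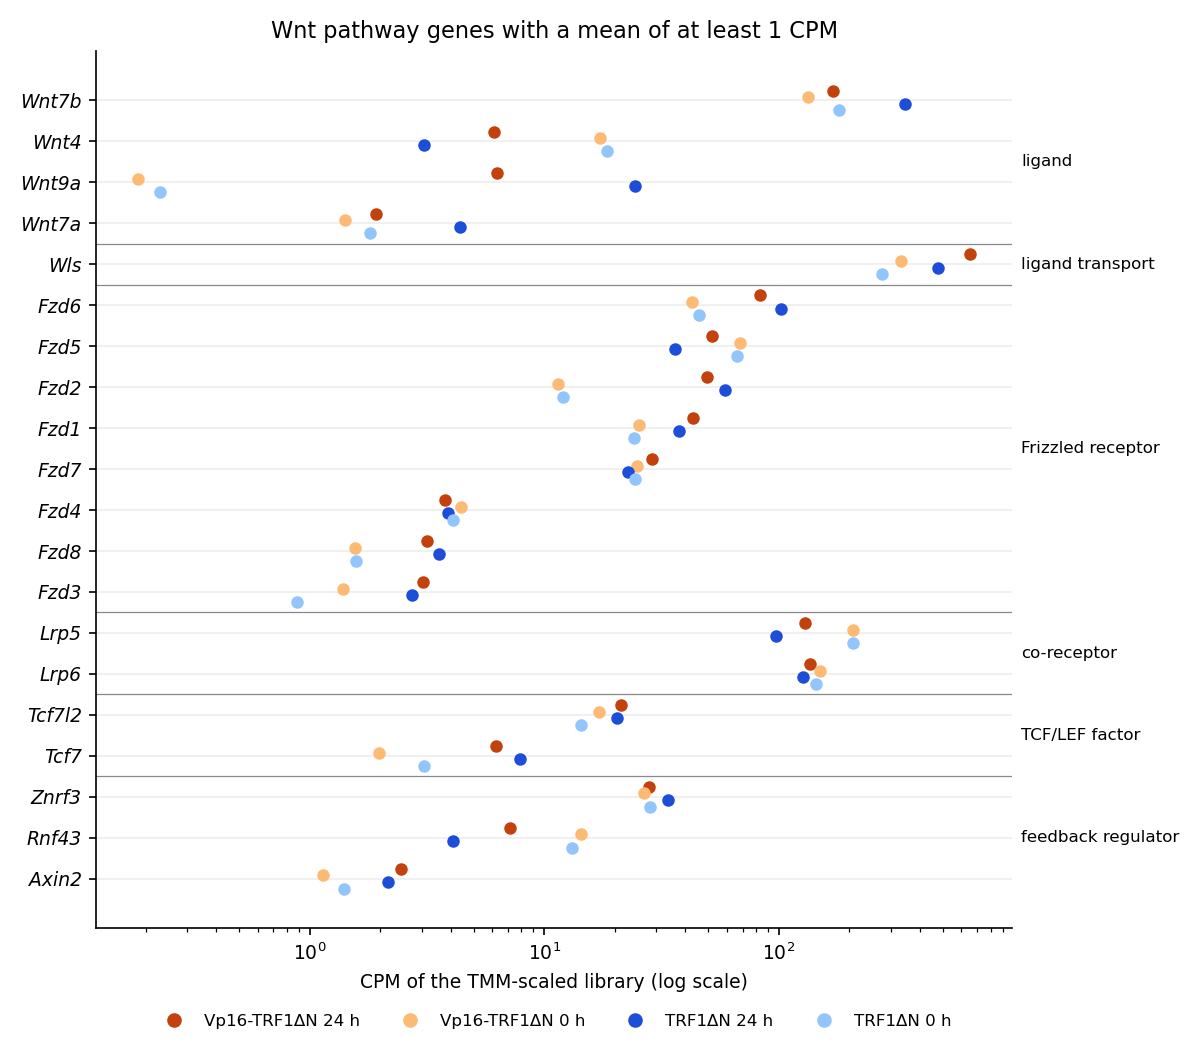
Level of the 20 Wnt pathway genes that averaged 1 CPM or more, by role, with 1 point for each library; the axis is CPM of the scaled library on a log scale. Wnt9a shows the widest span, with 6.30 and 0.186 CPM in Vp16-TRF1ΔN at 24 h and 0 h, and 24.35 and 0.231 CPM in TRF1ΔN at 24 h and 0 h.

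Of the 7 ligand genes tested, 4 were called higher after TGFβ and 1 lower, beside 23.5% and 25.1% of all genes. Of the 4, 3 passed the filter only through the 24 h libraries. Wnt9a (ENSMUSG00000000126, chr11:59306928-59333552, + strand), a ligand known for its part in joint formation, had the largest ratio among the ligand genes that averaged 1 CPM or more. It had 216 and 8 counts in Vp16-TRF1ΔN at 24 h and 0 h, which is 6.30 and 0.186 CPM. In TRF1ΔN it had 1025 and 11 counts, or 24.35 and 0.231 CPM, at 24 h and 0 h. Both 24 h libraries thus lay far above both 0 h libraries, and the TRF1ΔN library at 24 h was the highest. The average log2 change was 6.14 ± 0.35 (SE; adjusted p = 0.00109, edgeR quasi-likelihood). Wnt9a entered the edgeR test only through its 24 h libraries, so its call is no support beyond its counts. Within lines, which have no test, the ratio was 34.0 in Vp16-TRF1ΔN (95% counting interval 16.9 to 79.7) and 105 in TRF1ΔN (58.7 to 212).

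Wnt4 (ENSMUSG00000036856, chr4:137277489-137299726, + strand), which acts downstream of progesterone in mammary duct branching in mice, moved the other way. It had 209 counts (6.10 CPM) and 746 counts (17.3 CPM) in Vp16-TRF1ΔN at 24 h and 0 h. In TRF1ΔN it had 130 counts (3.09 CPM) at 24 h and 882 counts (18.5 CPM) at 0 h. Both 24 h libraries were below both 0 h libraries, which lay close together. Wnt4 fell by 2.01 ± 0.28 on the log2 scale on average (SE; adjusted p = 0.00621, edgeR quasi-likelihood). The level was 2.84-fold lower in Vp16-TRF1ΔN (95% counting interval 2.43 to 3.32) and 5.99-fold lower in TRF1ΔN (4.98 to 7.26).

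Wnt7b, a canonical ligand known from lung and kidney development, was the ligand gene with the highest level per length of exon in every library. It had 170.4 and 133 CPM in Vp16-TRF1ΔN at 24 h and 0 h, and 344 and 181 CPM in TRF1ΔN at 24 h and 0 h. The TRF1ΔN library at 24 h stood well above the others. Wnt7b rose by 0.65 ± 0.15 (log2, SE; adjusted p = 0.0249, edgeR quasi-likelihood), but the call was lost in a model with TGFβ as the only term (adjusted p = 0.167). The increase was 1.28-fold in Vp16-TRF1ΔN (95% counting interval 1.24 to 1.33) and 1.90-fold in TRF1ΔN (1.85 to 1.956). Of its exonic bases, 6.61% overlap AU022754 on the opposite strand, whose row held at most 147 counts, and the strand setting of the counting is not given in the sources used here. Wnt7a, a close relative of Wnt7b, had 1.93 and 1.42 CPM in Vp16-TRF1ΔN at 24 h and 0 h, and 4.39 and 1.81 CPM in TRF1ΔN at 24 h and 0 h. Its average log2 change of 0.92 ± 0.28 did not pass (adjusted p = 0.0528, edgeR quasi-likelihood).

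**Figure D2:**
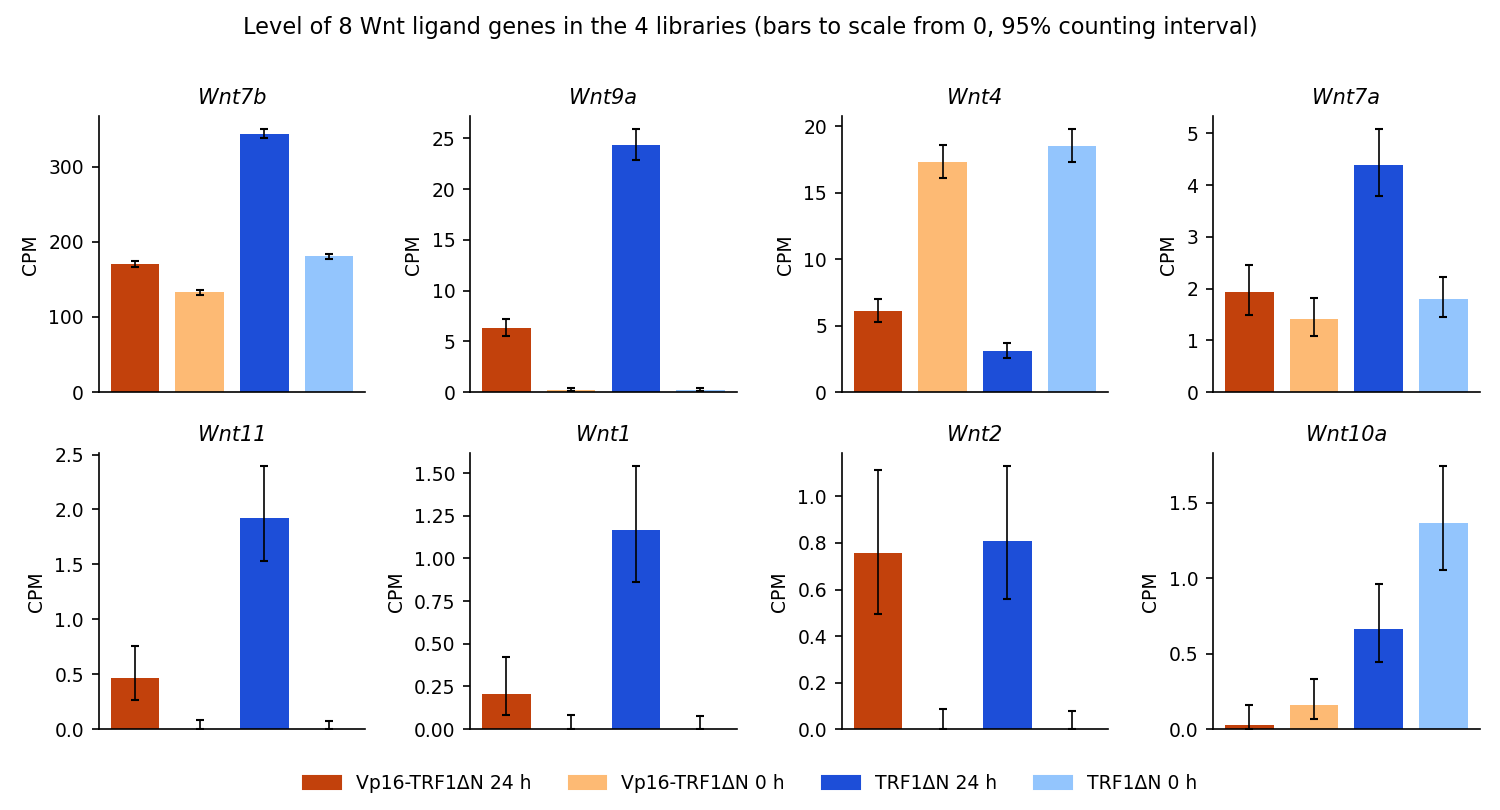
Level of 8 Wnt ligand genes in CPM, with 1 bar for each library, bars starting at 0 and whiskers giving the 95% counting interval. Wnt11, Wnt1 and Wnt2 have counts in the 24 h libraries only, and Wnt10a is lower in both Vp16-TRF1ΔN libraries than in both TRF1ΔN libraries.

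A group of ligand genes without counts at 0 h was detected after TGFβ. Wnt11, a ligand of the non-canonical branch, had 16 counts in Vp16-TRF1ΔN and 81 in TRF1ΔN at 24 h, and 0 in both 0 h libraries. Wnt2, which has a role in lung formation, had 26 and 34 counts at 24 h in the same lines, and 0 at 0 h. Wnt1, the founding member of the family and a target of mouse mammary tumour virus insertion, had 7 and 49 counts at 24 h, and 0 at 0 h. Measured against a floor of 3 counts in the library at 0, Wnt11 was at least 6.71-fold higher in Vp16-TRF1ΔN and at least 30.6-fold higher in TRF1ΔN. Wnt2 was at least 10.9-fold higher in Vp16-TRF1ΔN and at least 12.8-fold higher in TRF1ΔN, and Wnt1 at least 2.93-fold higher in Vp16-TRF1ΔN and at least 18.5-fold higher in TRF1ΔN. Wnt11 and Wnt2 entered the edgeR test only through the 24 h libraries in which they are high, so their calls are no support beyond these counts, and DESeq2 did not call Wnt11 (adjusted p = 0.137). Wnt1 was below the filter of the test. All 3 genes stayed below 2 CPM in every library.

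The other ligand genes averaged under 1 CPM. Wnt10b, which lies 11.7 kb from Wnt1 on chromosome 15 on the opposite strand, had 2 and 9 counts in Vp16-TRF1ΔN and TRF1ΔN at 24 h, and 0 in both at 0 h. Wnt5a, the best known non-canonical ligand, had 3 and 1 counts in Vp16-TRF1ΔN at 24 h and 0 h, while TRF1ΔN had 13 and 2 at these times. Wnt10a had 1 and 7 counts in Vp16-TRF1ΔN at 24 h and 0 h, while TRF1ΔN had 28 and 65 at these times. Its average log2 change with TGFβ of -1.17 ± 0.39 did not pass (adjusted p = 0.0675, edgeR quasi-likelihood). Wnt3, Wnt5b and Wnt6 had at most 3 counts in any library.

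Summed per kb of exon, the 13 ligand genes reached 39.3 and 31.8 CPM per kb in Vp16-TRF1ΔN at 24 h and 0 h, and 81.4 and 42.5 CPM per kb in TRF1ΔN at 24 h and 0 h. Wnt7b made up most of each sum, with 88.4% and 85.2% in Vp16-TRF1ΔN at 24 h and 0 h, and 86.3% and 86.8% in TRF1ΔN at 24 h and 0 h. Below it, the order of Wnt9a and Wnt4 differed between the times. Wnt9a took 4.81% and 0.175% of the sum in Vp16-TRF1ΔN at 24 h and 0 h, and Wnt4 took 3.70% and 13.0%. In TRF1ΔN, Wnt9a took 8.99% and 0.163% at 24 h and 0 h, and Wnt4 took 0.905% and 10.4%.

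**Figure D3:**
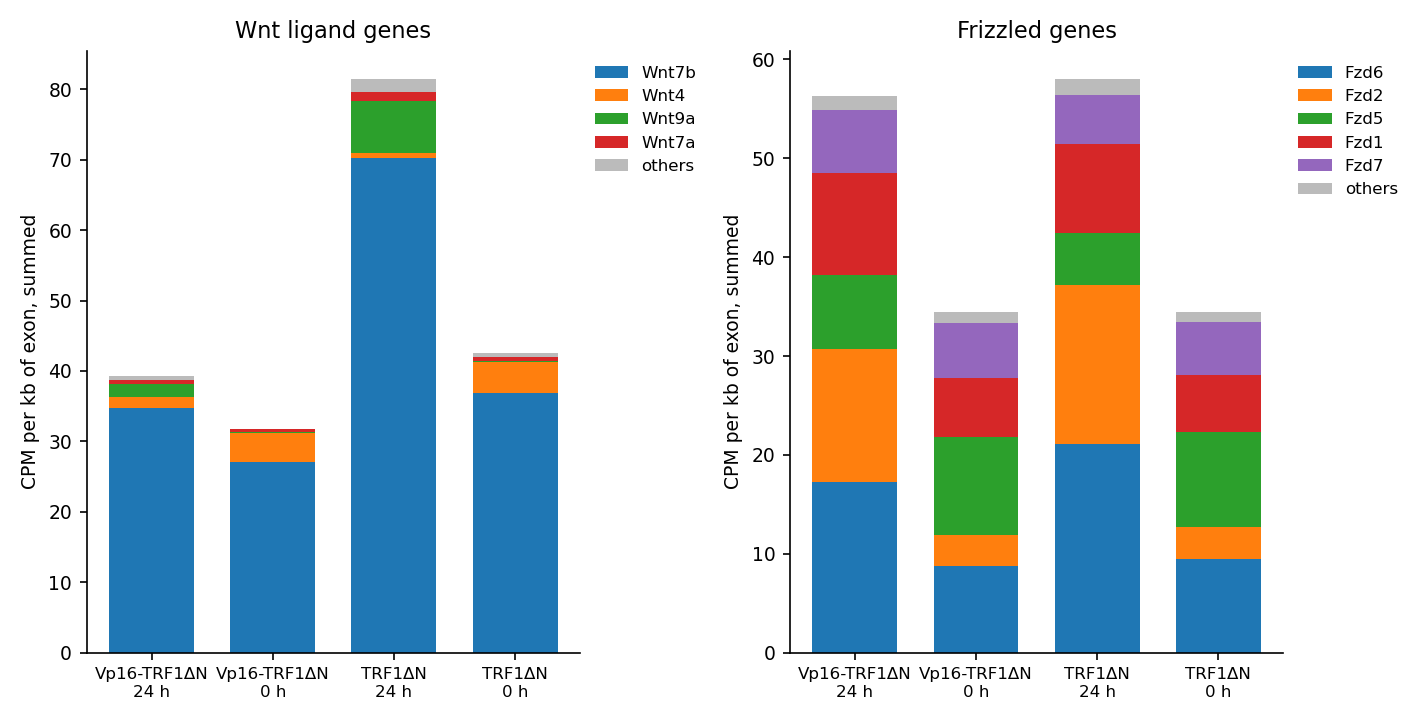
Summed level of the Wnt ligand genes (left) and of the Frizzled genes (right) in each library, in CPM per kb of exon, with stacked segments for single genes. Wnt7b fills 85.2% to 88.4% of each ligand bar, and the Fzd2 segment is larger in the 24 h bars of both lines than in their 0 h bars.

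Wls, the only member of the ligand transport group, had the highest level per length of any member in both Vp16-TRF1ΔN libraries. It had 74.5 and 37.5 CPM per kb in Vp16-TRF1ΔN at 24 h and 0 h, and 54.1 and 31.4 CPM per kb in TRF1ΔN at 24 h and 0 h. In both TRF1ΔN libraries Wnt7b stood above it, with 70.2 and 36.9 CPM per kb at 24 h and 0 h. The level of Wls was 655 and 330.02 CPM in Vp16-TRF1ΔN at 24 h and 0 h, and 476 and 276 CPM in TRF1ΔN at 24 h and 0 h. Wls rose by 0.89 ± 0.08 (log2, SE; adjusted p = 0.00244, edgeR quasi-likelihood), with ratios of 1.99 (95% counting interval 1.94 to 2.03) in Vp16-TRF1ΔN and 1.72 (1.68 to 1.76) in TRF1ΔN.

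Of the 9 Frizzled receptor genes with a row, all tested, 5 rose after TGFβ and 1 fell, beside 23.5% and 25.1% of all genes. Fzd2 rose most. It had 49.2 and 11.5 CPM in Vp16-TRF1ΔN at 24 h and 0 h, and 58.8 and 12.01 CPM in TRF1ΔN at 24 h and 0 h. The 0 h libraries of the lines lay close together, as did the 24 h libraries, and the times did not overlap. The average log2 change was 2.203 ± 0.09 (SE; adjusted p = 0.000793, edgeR quasi-likelihood), with ratios of 4.28 in Vp16-TRF1ΔN (95% counting interval 3.87 to 4.74) and 4.895 in TRF1ΔN (4.47 to 5.37).

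Fzd6, known for its role in planar polarity and hair patterning in mice, had 83.2 and 42.5 CPM in Vp16-TRF1ΔN at 24 h and 0 h, and 102 and 45.6 CPM in TRF1ΔN at 24 h and 0 h. It rose by 1.07 ± 0.08 (log2, SE; adjusted p = 0.00171, edgeR quasi-likelihood). Fzd3, which acts in axon guidance, rose by 1.37 ± 0.24 (adjusted p = 0.0116), with 3.03 and 1.39 CPM in Vp16-TRF1ΔN at 24 h and 0 h, and 2.73 and 0.882 CPM in TRF1ΔN at 24 h and 0 h. Fzd8 rose by 1.11 ± 0.19 (adjusted p = 0.0115) and Fzd1 by 0.71 ± 0.08 (adjusted p = 0.00375), in the same edgeR test. Fzd8 was a low-level receptor gene, with 3.18 and 1.55 CPM in Vp16-TRF1ΔN at 24 h and 0 h, and 3.56 and 1.57 CPM in TRF1ΔN at 24 h and 0 h. Fzd1 had 43.3 and 25.3 CPM in Vp16-TRF1ΔN at 24 h and 0 h, and 37.7 and 24.2 CPM in TRF1ΔN at 24 h and 0 h. For each of these 4 genes both 24 h libraries lay above both 0 h libraries.

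Fzd5, a receptor with known roles in the intestine and eye, moved against the other Frizzled genes called. It had 52.1 and 68.1 CPM in Vp16-TRF1ΔN at 24 h and 0 h, and 36.1 and 66.2 CPM in TRF1ΔN at 24 h and 0 h. It fell by 0.62 ± 0.13 (log2, SE; adjusted p = 0.0201, edgeR quasi-likelihood), and the call was lost with TGFβ as the only term (adjusted p = 0.0537). Of its exonic bases, 17.8% overlap Gm38058 on the opposite strand, whose row held 6 to 13 counts. Fzd4, Fzd7 and Fzd9 were not called (adjusted p = 0.528, 0.660 and 0.596, edgeR quasi-likelihood). Fzd4, the receptor for Norrin in retinal vessels, had 3.79 and 4.43 CPM in Vp16-TRF1ΔN at 24 h and 0 h, and 3.90 and 4.07 CPM in TRF1ΔN at 24 h and 0 h. Fzd9 had 8 to 18 counts in the 4 libraries. Fzd7 had 28.8 and 24.9 CPM in Vp16-TRF1ΔN at 24 h and 0 h, and 22.7 and 24.3 CPM in TRF1ΔN at 24 h and 0 h.

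The Frizzled genes together reached 56.3 and 34.5 CPM per kb in Vp16-TRF1ΔN at 24 h and 0 h, and 58.0 and 34.5 CPM per kb in TRF1ΔN at 24 h and 0 h. Fzd2 made up 23.8% and 9.09% of the sum in Vp16-TRF1ΔN at 24 h and 0 h, and 27.7% and 9.503% in TRF1ΔN at 24 h and 0 h. The share of Fzd5 was 13.4% and 28.6% in Vp16-TRF1ΔN, and 8.996% and 27.8% in TRF1ΔN, at 24 h and 0 h. Fzd5 had the largest share at 0 h in Vp16-TRF1ΔN, and in TRF1ΔN at 0 h the counting intervals of Fzd5 and Fzd6 overlapped. Fzd6 had the largest share at 24 h, with 30.6% in Vp16-TRF1ΔN and 36.5% in TRF1ΔN.

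The co-receptor genes Lrp5 and Lrp6 encode related single-pass proteins that are phosphorylated once a Wnt is bound. Lrp5 had 129 and 206 CPM in Vp16-TRF1ΔN at 24 h and 0 h, and 97.04 and 207 CPM in TRF1ΔN at 24 h and 0 h. Both 0 h libraries stood above both 24 h libraries, and Lrp5 fell by 0.88 ± 0.12 (log2, SE; adjusted p = 0.005595, edgeR quasi-likelihood). Lrp6 had 136 and 150.03 CPM in Vp16-TRF1ΔN at 24 h and 0 h, and 126 and 144 CPM in TRF1ΔN at 24 h and 0 h. Its average log2 change of -0.16 ± 0.06 did not pass (adjusted p = 0.1003). Per kb of exon, Lrp5 was 57.1% and 65.9% of the pair in Vp16-TRF1ΔN at 24 h and 0 h, and 51.9% and 66.9% in TRF1ΔN at 24 h and 0 h.

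Tcf7 and Tcf7l2 rose after TGFβ. Tcf7 (ENSMUSG00000000782, chr11:52252371-52283014, - strand), a β-catenin partner best known from T cells, had 213 counts (6.22 CPM) and 85 counts (1.97 CPM) in Vp16-TRF1ΔN at 24 h and 0 h. In TRF1ΔN it had 331 counts (7.86 CPM) at 24 h and 146 counts (3.06 CPM) at 0 h. The 24 h libraries lay above the 0 h libraries in both lines, and the average log2 change was 1.504 ± 0.17 (SE; adjusted p = 0.0038, edgeR quasi-likelihood). The ratio was 3.15 in Vp16-TRF1ΔN (95% counting interval 2.44 to 4.10) and 2.57 in TRF1ΔN (2.11 to 3.14).

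Tcf7l2 rose less, by 0.42 ± 0.10 (log2, SE; adjusted p = 0.0233, edgeR quasi-likelihood), and DESeq2 did not call it (adjusted p = 0.0975). It had 21.3 and 17.1 CPM in Vp16-TRF1ΔN at 24 h and 0 h, and 20.4 and 14.4 CPM in TRF1ΔN at 24 h and 0 h. Tcf7l1, which mostly acts as a repressor, had 14 and 3 counts in Vp16-TRF1ΔN at 24 h and 0 h, while TRF1ΔN had 25 and 0 at these times. It entered the edgeR test only through the 24 h libraries, so its call is no support beyond these counts. The ratio was 5.87 in Vp16-TRF1ΔN (95% counting interval 1.64 to 31.9). In TRF1ΔN it was 9.43 against the floor of 3 counts, and the lower end of its counting interval was 7.12. Lef1, the TCF/LEF gene often linked to EMT, had 2 and 0 counts in Vp16-TRF1ΔN at 24 h and 0 h, while TRF1ΔN had 1 and 0 at these times. Tcf7 made up 48.3% and 27.7% of the summed TCF/LEF level per kb in Vp16-TRF1ΔN at 24 h and 0 h, and 54.7% and 41.6% in TRF1ΔN at 24 h and 0 h.

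Among the feedback regulators, Rnf43 fell and Axin2 rose. Rnf43, a membrane ubiquitin ligase that removes Frizzled receptors from the cell surface, had 7.12 and 14.4 CPM in Vp16-TRF1ΔN at 24 h and 0 h, and 4.09 and 13.1 CPM in TRF1ΔN at 24 h and 0 h. It fell by 1.33 ± 0.19 (log2, SE; adjusted p = 0.00691, edgeR quasi-likelihood). Its paralog Znrf3, with the same function, had 27.9 and 26.6 CPM in Vp16-TRF1ΔN at 24 h and 0 h, and 33.8 and 28.1 CPM in TRF1ΔN at 24 h and 0 h. Znrf3 did not pass, with a log2 change of 0.17 ± 0.09 (adjusted p = 0.173).

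Axin2, a scaffold of the β-catenin destruction complex and a widely used target gene of canonical signalling, had 84 and 49 counts in Vp16-TRF1ΔN at 24 h and 0 h, while TRF1ΔN had 91 and 67 at these times. This is 2.45, 1.14, 2.16 and 1.41 CPM in these libraries. Its log2 rise of 0.86 ± 0.24 passed in edgeR's quasi-likelihood test (adjusted p = 0.0415) but not in DESeq2 (adjusted p = 0.226). Nkd2, which binds Dishevelled, had 7 and 0 counts in Vp16-TRF1ΔN at 24 h and 0 h, while TRF1ΔN had 2 and 3 at these times.

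The second comparison asked whether the lines differ. The lines differ both in the Vp16 fusion and in the counts of the TRF1ΔN row given above, and these cannot be told apart. Averaged over both times, edgeR's quasi-likelihood test called 0 of the 25 members and 0 (0%) of the 14305 genes. At an unadjusted p under 0.05, 1 member (Wls) was higher in Vp16-TRF1ΔN and 6 were lower (Tcf7, Wnt10a, Wnt11, Wnt7a, Wnt7b and Wnt9a), beside 5.18% and 7.298% of all genes. DESeq2 called Wnt7b lower (adjusted p = 0.0123) and no other member, and edgeR without the filter on low counts called Wnt10a, Wnt7b and Wnt9a lower. Over all genes, DESeq2 called 0.0985% of 13195 higher and 0.258% lower, and edgeR without the filter called 0.127% of 21971 higher and 0.369% lower. The average log2 difference, Vp16-TRF1ΔN minus TRF1ΔN, was -0.73 ± 0.15 for Wnt7b (adjusted p = 0.394), -1.78 ± 0.30 for Wnt9a (adjusted p = 0.394) and -3.35 ± 0.45 for Wnt10a (adjusted p = 0.370) in edgeR's quasi-likelihood test. Wnt10a had 1 and 7 counts in Vp16-TRF1ΔN at 24 h and 0 h, against 28 and 65 in TRF1ΔN. It passed the filter on low counts only through its TRF1ΔN libraries and could hardly come out other than lower. Its place among the 6 members is thus no support beyond these counts.

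At single times the lines can be set side by side without a test. Members averaging 1 CPM or more were counted where the lines differed by 2-fold or more and the 95% counting interval of the ratio left out 1. At 0 h, 0 of 20 members were counted, beside 0.594% of 11777 genes (0.178% higher and 0.416% lower). At 24 h, 0 of 20 were counted higher and 3 lower in Vp16-TRF1ΔN, beside 2.11% and 1.18% of genes (3.29% in all). All 3 were ligand genes. Wnt9a was 3.86-fold lower in Vp16-TRF1ΔN at 24 h (95% counting interval 3.33 to 4.49), Wnt7a 2.28-fold lower (1.71 to 3.07) and Wnt7b 2.02-fold lower (1.959 to 2.08), just past the limit. Among the 4 ligand genes of at least 1 CPM, Wnt4 stood apart, with a ratio of Vp16-TRF1ΔN to TRF1ΔN at 24 h of 1.97 (1.58 to 2.48). At 0 h Wnt4 was 1.07-fold lower in Vp16-TRF1ΔN (0.969 to 1.18) and Wnt9a 1.24-fold lower (0.456 to 3.56), and both intervals hold 1. Tcf7 was 1.55-fold lower in Vp16-TRF1ΔN at 0 h (1.18 to 2.06) and 1.27-fold lower at 24 h (1.06 to 1.51).

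Ligand genes below 1 CPM were lower in Vp16-TRF1ΔN at 24 h in several cases. Wnt11 was 4.12-fold lower (95% counting interval 2.39 to 7.55) and Wnt1 5.70-fold lower (2.57 to 14.9), while Wnt2 had a ratio whose interval held 1. Wnt10a differed by more than 2-fold already at 0 h, with 7 counts in Vp16-TRF1ΔN against 65 in TRF1ΔN, which is 8.40-fold lower (3.85 to 21.7). Its neighbour Wnt6, which ends 6.19 kb before Wnt10a on chromosome 1, had 1 or 2 counts in every library.

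The summed level of the ligand genes differed between the lines at 24 h, and that of the Frizzled genes hardly did. Summed per kb, the ligand genes reached 39.3 CPM per kb in Vp16-TRF1ΔN and 81.4 in TRF1ΔN at 24 h, whereas the Frizzled genes reached 56.3 and 58.0 CPM per kb. Left without Wnt7b, the ligand sums at 24 h were 4.55 CPM per kb in Vp16-TRF1ΔN and 11.2 CPM per kb in TRF1ΔN, and at 0 h 4.72 and 5.63 CPM per kb. Most of that gap at 24 h was Wnt9a, with 1.89 CPM per kb in Vp16-TRF1ΔN and 7.31 in TRF1ΔN. Wnt4 went the other way, with 1.45 and 0.736 CPM per kb. Of the ligand sums, those at 24 h thus lay further apart between lines than those at 0 h. These sums are single values for each library and were not tested.

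The third comparison set the TGFβ response of Vp16-TRF1ΔN cells against that of TRF1ΔN cells, which is the study's question for EMT genes as a whole. Within Vp16-TRF1ΔN, 6 of 20 members were counted higher and 2 lower at 24 h, beside 6.92% and 9.09% of genes. Within TRF1ΔN, 7 were counted higher and 3 lower, beside 8.4% and 10.9% of genes. Fzd2, Fzd3, Fzd8, Tcf7 and Wnt9a were counted higher in both lines, and Rnf43 and Wnt4 lower in both. At 0 h Wnt9a had 0.186 CPM in Vp16-TRF1ΔN and 0.231 CPM in TRF1ΔN. It reached the mean of 1 CPM only through its 24 h libraries, so it could hardly be counted other than higher. Axin2 was counted in Vp16-TRF1ΔN, and Fzd6, Wnt7a and Lrp5 in TRF1ΔN. Several of these lay near the 2-fold limit, with Fzd6 at a ratio of 1.958 in Vp16-TRF1ΔN and 2.23 in TRF1ΔN.

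The difference between the responses was counted for 2 of the 20 members, beside 1.81% of genes higher and 0.926% lower. Wnt4 was the one counted higher: its response ratio was 2.096-fold larger in Vp16-TRF1ΔN than in TRF1ΔN (95% counting interval 1.65 to 2.66), which means a smaller drop. Wnt9a was the one counted lower, with a response 3.22-fold smaller in Vp16-TRF1ΔN (1.40 to 7.39). For both ligands the 24 h library of Vp16-TRF1ΔN lay between its own 0 h library and the 24 h library of TRF1ΔN. Wnt7a and Wnt7b had responses 1.78-fold (1.16 to 2.72) and 1.48-fold (1.42 to 1.55) smaller in Vp16-TRF1ΔN, below the size that was counted. Rnf43, Fzd5 and Lrp5 had ratios closer to 1 in Vp16-TRF1ΔN than in TRF1ΔN. Their responses were 1.57-fold (1.26 to 1.97), 1.40-fold (1.29 to 1.53) and 1.33-fold (1.27 to 1.404) higher, also below that size. The response of Tcf7 was 1.22-fold larger in Vp16-TRF1ΔN, with an interval that holds 1 (0.890 to 1.67). With 1 library per group, these intervals cover counting error only, and the difference has no replicate check. The counts of the TRF1ΔN row also changed with time in the lines unequally. They were 159 and 123 in Vp16-TRF1ΔN at 24 h and 0 h, and 7798 and 1863 in TRF1ΔN. The Vp16 fusion and this change in the construct cannot be told apart in the difference of responses.

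**Figure D4:**
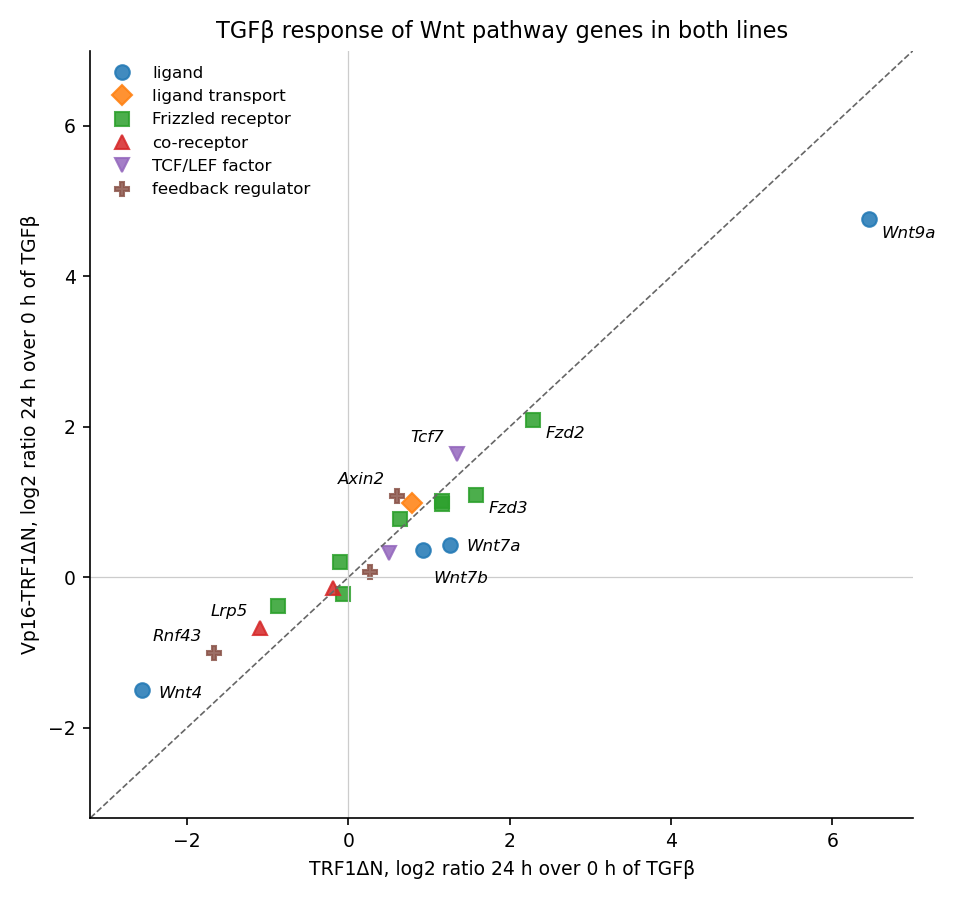
Log2 ratio of 24 h to 0 h of TGFβ in Vp16-TRF1ΔN (vertical axis) against that in TRF1ΔN (horizontal axis) for the 20 members that averaged 1 CPM or more, coloured by role; the dashed line marks equal ratios. Wnt9a and Wnt4 lie at the ends and are both nearer to 0 in Vp16-TRF1ΔN, and Fzd7 is the point with ratios of opposite sign.

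The wider pathway was described with a list of 118 further symbols, of which 102 had a row and 86 were tested. After TGFβ, 40 rose and 15 fell in edgeR's quasi-likelihood test, beside 23.5% and 25.1% of all genes. The median log2 change was 0.31 over the 86 and -0.00103 over all genes, and the line difference called 0 of the 86. Among 9 genes of ligand secretion and the extracellular space, 4 rose and 1 fell. Lgr6, a receptor for the Wnt-enhancing R-spondins, rose by 6.24 ± 0.09 (log2, SE), with 156 and 2.18 CPM in Vp16-TRF1ΔN at 24 h and 0 h, and 214 and 2.71 CPM in TRF1ΔN at 24 h and 0 h. Its paralog Lgr4 fell by 1.56 ± 0.19, with 96.2 and 221 CPM in Vp16-TRF1ΔN at 24 h and 0 h, and 53.6 and 205 CPM in TRF1ΔN at 24 h and 0 h. These R-spondin receptor genes thus moved in opposite directions. Trabd2b, a protease that inactivates Wnt proteins, rose by 3.88 ± 0.36, and Kremen1, a receptor for Dkk antagonists, by 1.18 ± 0.07.

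Of 11 genes of alternative receptors and cell polarity, 7 rose and 1 fell, beside 23.5% and 25.1% of all genes. The planar polarity genes Vangl2 and Ptk7 rose by 1.32 ± 0.13 and 1.25 ± 0.13 (log2, SE), and Vangl1 fell by 0.45 ± 0.07. Celsr1, another polarity gene, rose by 0.30 ± 0.07. Of 29 cytoplasmic genes, 15 rose and 4 fell, beside the same shares of all genes. Ctnnb1, which encodes β-catenin and serves both signalling and cell junctions, fell by 1.06 ± 0.07. It had 1854 and 3880.1 CPM in Vp16-TRF1ΔN at 24 h and 0 h, and 1555 and 3284 CPM in TRF1ΔN at 24 h and 0 h. Frat2, an inhibitor of the kinase GSK3, fell by 1.43 ± 0.09, while Csnk1e, a kinase of Dishevelled, rose by 0.85 ± 0.08. Btrc, the subunit of the ubiquitin ligase that recognises β-catenin, rose by 0.83 ± 0.08.

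Of 14 nuclear cofactor genes, 4 rose and 1 fell, beside 23.5% and 25.1% of all genes. Hbp1, a repressor of Wnt targets, rose by 0.74 ± 0.06 (log2, SE), and Bcl9, a coactivator of β-catenin, by 0.66 ± 0.09. The corepressor gene Tle3 fell by 0.68 ± 0.07, and its paralog Tle4 rose by 0.30 ± 0.07, a call that DESeq2 did not make (adjusted p = 0.164). Of 24 genes known as Wnt or β-catenin targets in other settings, 10 rose and 8 fell, beside the 23.5% and 25.1% of all genes given above. Ephb2 rose by 4.95 ± 0.32 and Ccn4 by 3.20 ± 0.12 (edgeR quasi-likelihood, adjusted p = 0.00131 and 0.000793). Ephb2, like Trabd2b, passed the filter on low counts only through its 24 h libraries. Cdx2, an intestinal transcription factor gene, fell by 2.8999 ± 0.12, and Id2, also a target of BMP signalling, by 2.49 ± 0.33 (adjusted p = 0.000793 and 0.005595).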

How the data were processed

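The submitters' processing notes name FastQC, STAR, HTSeq, DESeq2 and the build mm10, without roles or versions. Whether reads were counted by strand, and on which annotation, is not given in the sources used here. Whole-number counts per gene, as the authors deposited them, were used for every result, beside a table of normalized log2 values. The deposited log2 values match the logarithm of 1 plus the size-factor-scaled count (within 1e-06) and served only as a check.

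Construct rows (4) were kept out of library sizes. Symbols, coordinates (GRCm38) and exonic lengths came from GENCODE vM21, which named 21889 of 21971 genes, and promoter windows from RefSeq (GRCm38.p6). The members and lists were chosen with earlier results of these data known. CPM was computed on the TMM-scaled library (edgeR 4.0.16, R 4.3.3). The additive model with terms for line and TGFβ was fitted to 14305 genes (filterByExpr). What remains is 1 residual degree of freedom, how far the libraries depart from additivity (prior degrees of freedom 3.44, biological coefficient of variation 0.0930). Tests were two-sided, with Benjamini-Hochberg adjustment over all genes tested. The SE was obtained as the absolute log2 change over the root of the F statistic. The labels do not say that libraries came from separate cultures, so p-values measure only the spread between these libraries. The script was tested on simulated data.

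For the 2-fold threshold a prior count of 2 was used, and the printed differences of responses carry it too. The other untested ratios are from scaled counts. Their 95% intervals are exact and conditional on the sum of both counts (Clopper-Pearson), and those of differences of responses and of shares rest on Poisson variances. A count of 0 was set to a floor of 3 counts per library (0.0875 CPM in Vp16-TRF1ΔN at 24 h, the shallowest). Intervals cover counting error only, and floors only that of the count of 0. Members averaging 1 CPM or more were given with their values in each library, and the others by counts. From each pathway group, the 2 called genes with the highest and the 2 with the lowest log2 change were named. Alternatives were DESeq2 (1.42.0), its size factors, no filter on low counts, each term alone, no mitochondrially encoded genes, and other prior counts, fold thresholds and level minimums.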

Additional observations from a re-analysis of the deposited data

How the results depend on the processing

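For the average TGFβ response, DESeq2's size factors in edgeR, leaving out mitochondrially encoded genes and dropping the filter on low counts each kept all 18 member calls. DESeq2 kept 15 of 18, losing Tcf7l2, Axin2 and Wnt11, and TGFβ as the only term kept 16 of 18, losing Fzd5 and Wnt7b. Without the filter, Wnt7a was also called higher (adjusted p = 0.0149, edgeR quasi-likelihood). Counting only members that reached the filter's level at both times, a choice made after seeing the data, left 10 called higher and 4 lower. No member changed direction under these alternatives. For the average line difference, members called lower numbered 0 with the filter, 3 without it and 1 in DESeq2; the cause was not tested. Without a minimum level, members counted higher after TGFβ numbered 11 in Vp16-TRF1ΔN and 13 in TRF1ΔN (6 and 7 with it), and members counted lower in Vp16-TRF1ΔN numbered 1 at 0 h and 6 at 24 h (0 and 3 with it), since more genes were then counted. At a threshold of 1.5-fold, which admits smaller ratios, 11 members were counted higher in TRF1ΔN after TGFβ. The line ratio was then counted higher for 1 member and lower for 1 at 0 h, and higher for 2 at 24 h, and the difference of responses higher for 2 and lower for 2. The shares of all genes without a minimum level and at 1.5-fold were not computed, so these counts have no background beside them. The members added without a minimum level all averaged under 1 CPM.

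No paired analysis was possible because the labels carry no replicate numbers and each group is 1 library. Leaving out a library was not run, since the additive model would have no residual degree of freedom. Genes under 1 CPM rest on few counts, and a change in their level below the counting interval was not detectable at this depth.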
